A study of Mus musculus with 4 samples.

Results

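Transcription factor genes that mark the birth and identity of cortical projection neurons were followed in RNA sequencing libraries labelled as microglia from the cerebral cortex of mouse embryos. The 8 genes, Neurog2, Eomes, Neurod1, Neurod2, Neurod6, Tbr1, Fezf2 and Bcl11b, were taken by symbol, and all 8 of 8 were found among the 21981 genes in the tables. The libraries labelled Bach1 cKO (cKO 2 and cKO 5) came from a conditional knockout that the series text names Bach1cKO-Cx3. The BACH1 protein binds heme and represses transcription of antioxidant genes. The libraries labelled Bach1 fl/fl (control 1 and control 6) carried the floxed allele, with no Cre named. Every library was from untreated embryos at embryonic day 16, with n = 2 libraries per genotype. The series design text speaks of triplicates, but 2 libraries per genotype were available. The labels do not say whether a library held 1 animal or several, how the microglia were isolated, or that libraries came from separate animals. All p-values therefore reflect no more than the differences among these 4 samples, which may be technical.

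Total reads per library lay between 17233115 and 19305078 reads, so that 3 reads corresponded to 0.155 to 0.174 CPM (counts scaled to a common library total). Bach1 itself had 29.98 and 35.4 CPM in the cKO libraries and 45.8 and 21.6 CPM in the controls (log2 fold change −0.07 ± 0.47 SE, edgeR quasi-likelihood adjusted p = 0.9997). Reads from exons that are not floxed enter this value, so it does not check the genotype labels. All 16 of 16 microglial genes on the marker list were detected in every library. Their summed level was 9883 CPM in cKO 2 and 38575 CPM in cKO 5, against 27428 CPM in control 1 and 43391 CPM in control 6. Library cKO 2 thus stood apart, with the lowest microglial sum and the highest level of every projection neuron factor. Fold changes of the 8 factors and of the marker lists are therefore given with and without it.

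Projection neurons are the glutamatergic cells of the cortex that send axons to other regions. Radial glia in the ventricular zone express the proneural factor Neurog2, give rise to intermediate progenitors that express Eomes (also called Tbr2), and these divide into neurons that pass through expression of the NeuroD family and settle in layers under factors such as Tbr1, Fezf2 and Bcl11b (also called Ctip2). Within the cortex, these genes serve as markers of neurons and their progenitors, not of microglia, although not all are confined to those cells.

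By the protein families in the deposited annotation, 4 of the genes encode basic helix-loop-helix proteins (Neurog2, Neurod1, Neurod2 and Neurod6), 2 encode T-box proteins (Eomes and Tbr1) and 2 encode zinc finger proteins (Fezf2 and Bcl11b). The deposited gene ontology terms placed 7 of the 8, all except Fezf2, under positive regulation of RNA polymerase II transcription, and 3 (Tbr1, Fezf2 and Bcl11b) under commitment of forebrain neurons to a specific type. Basic helix-loop-helix dimers bind the E-box, which is CANNTG on either strand. In the 250 bases before the RefSeq start site (build GRCm38.p6), an E-box was found for Neurod1, Neurod2, Neurod6 and Tbr1, that is for 4 of 8 genes, and for 66.2% of all 32851 promoters of that length. These 4 windows are shown because they hold the motif of the family to which 4 of the genes belong. They lie at chr2:79456637-79456886 for Neurod1, chr11:98329646-98329895 for Neurod2 and chr6:55681264-55681513 for Neurod6, all on the minus strand, and at chr2:61804203-61804452 on the plus strand for Tbr1. Each is written 5′ to 3′ along its gene with the E-boxes in capitals.
Neurod1: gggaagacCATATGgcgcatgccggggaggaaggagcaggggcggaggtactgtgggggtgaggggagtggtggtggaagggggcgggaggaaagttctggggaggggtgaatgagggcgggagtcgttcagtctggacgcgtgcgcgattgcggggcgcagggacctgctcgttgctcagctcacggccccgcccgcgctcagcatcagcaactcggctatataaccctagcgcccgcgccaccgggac
Neurod2: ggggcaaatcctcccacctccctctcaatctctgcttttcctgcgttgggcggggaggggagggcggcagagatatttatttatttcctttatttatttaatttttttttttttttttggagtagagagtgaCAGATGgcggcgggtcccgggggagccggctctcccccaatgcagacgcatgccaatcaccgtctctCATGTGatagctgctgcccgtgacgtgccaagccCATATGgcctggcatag
Neurod6: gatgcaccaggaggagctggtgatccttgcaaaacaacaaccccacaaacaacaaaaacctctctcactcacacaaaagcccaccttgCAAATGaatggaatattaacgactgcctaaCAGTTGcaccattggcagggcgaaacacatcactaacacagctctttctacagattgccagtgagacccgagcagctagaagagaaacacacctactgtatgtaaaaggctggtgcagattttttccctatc
Tbr1: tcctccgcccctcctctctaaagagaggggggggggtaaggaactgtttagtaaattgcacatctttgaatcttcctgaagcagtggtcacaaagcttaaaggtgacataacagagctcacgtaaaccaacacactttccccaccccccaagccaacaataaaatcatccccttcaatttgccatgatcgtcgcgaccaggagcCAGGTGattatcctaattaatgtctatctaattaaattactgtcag
Neurod2 held 3 E-boxes, Neurod6 held 2, and Neurod1 and Tbr1 held 1 each. The subtype CATATG was present for Neurod1 and Neurod2, against 3.46% of all promoters, and CAGATG for Neurod2 alone of the 8, against 14.4%. The T-box motif AGGTGTGA (either strand) was found in none of the 8 windows and in 1.12% of all promoters. TATATAA (either strand, searched after the sequences were seen) was found for Neurog2, Eomes and Neurod1, from 29, 30 and 31 bases before the start site, against 3.04% of all promoters. The RefSeq starts of Tbr1, Bcl11b and Neurod1 lie 1523, 188 and 115 bases inside these genes as the tables place them. Their windows may therefore not lie at the starts used in these cells. A match in a window is a description of its letters.

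The progenitor factors rested on the fewest reads. Neurog2 (ENSMUSG00000027967, chromosome 3, 127633135 to 127635631, plus strand, GRCm38), which drives radial glia toward the glutamatergic neuronal fate, reached 22.8 CPM in cKO 2 and 1.61 CPM in cKO 5, against 6.12 CPM in control 1 and 2.26 CPM in control 6. The cKO values stood outside the controls on both sides. On the lower side, exact 95% Poisson intervals overlapped, at 1.09 to 2.28 CPM (31 reads) in cKO 5 and 1.61 to 3.09 CPM (39 reads) in control 6. Eomes (ENSMUSG00000032446, chromosome 9, 118478212 to 118486132, plus strand), the T-box factor of intermediate progenitors, had 8.67 and 2.12 CPM in cKO 2 and cKO 5, against 2.46 and 0.928 CPM in control 1 and control 6. Its count in control 6 was 16 reads, with an exact 95% Poisson interval of 0.531 to 1.51 CPM. The intervals of cKO 5 (1.52 to 2.88 CPM) and control 1 (1.78 to 3.31 CPM) overlapped. Such intervals cover counting error only. An antisense gene, Gm33460, overlaps exons of Eomes and had between 0 and 8 reads per library.

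Neurod1 and Neurod6 had the widest ranges of the set. Neurod1 (ENSMUSG00000034701, chromosome 2, 79452521 to 79456751, minus strand), which acts as progenitors become neurons, reached 109 CPM in cKO 2 and 4.87 CPM in cKO 5, against 28.3 CPM in control 1 and 4.41 CPM in control 6. Its highest library was 24.8-fold above its lowest, the widest range of the 8 genes. Exons of Cerkl on the same strand and of Gm26755 on the opposite strand overlap Neurod1, so its reads may be split. Neurod2 (ENSMUSG00000038255, chromosome 11, 98325415 to 98329648, minus strand), a factor of postmitotic glutamatergic neurons, had 232 and 21.3 CPM in cKO 2 and cKO 5, against 62.3 and 20.4 CPM in control 1 and control 6. Neurod6 (ENSMUSG00000037984, chromosome 6, 55677822 to 55681263, minus strand), also known as Nex and used as a marker of young projection neurons, had 1653 and 95.4 CPM in the same cKO libraries, against 435 and 134 CPM in the controls. For all 3 genes cKO 2 was highest and control 1 second, and cKO 5 lay near or below control 6.

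Among the factors of layer and subtype identity, Tbr1 and Bcl11b varied least of the set, and Fezf2 differed from the others in its order of libraries. Tbr1 (ENSMUSG00000035033, chromosome 2, 61802930 to 61814114, plus strand), which specifies layer 6 corticothalamic neurons, reached 22.2 CPM in cKO 2 and 6.22 CPM in cKO 5, against 8.81 CPM in control 1 and 6.21 CPM in control 6. Its range of 3.58-fold was the narrowest of the 8. Fezf2 (ENSMUSG00000021743, chromosome 14, 12341892 to 12345865, minus strand), which specifies subcerebral projection neurons of layer 5, had 56.9 and 8.13 CPM in cKO 2 and cKO 5, against 6.81 and 4.93 CPM in control 1 and control 6. It was the single member with both cKO values above both controls, on the deposited CPM and after TMM scaling, but not after scaling on the microglial genes. Such a separation on the higher side was found for 9.31% of the 15951 tested genes on the deposited CPM. The gap between cKO 5 (Poisson interval 6.91 to 9.51 CPM) and control 1 (5.64 to 8.15 CPM) was within counting error. Bcl11b (ENSMUSG00000048251, chromosome 12, 107910403 to 108003602, minus strand), which acts downstream of Fezf2 in subcerebral neurons and is also used by striatal neurons and T cells, had 147 and 20.8 CPM in the cKO libraries, against 47.6 and 19.6 CPM in the controls.

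**Figure D1:**
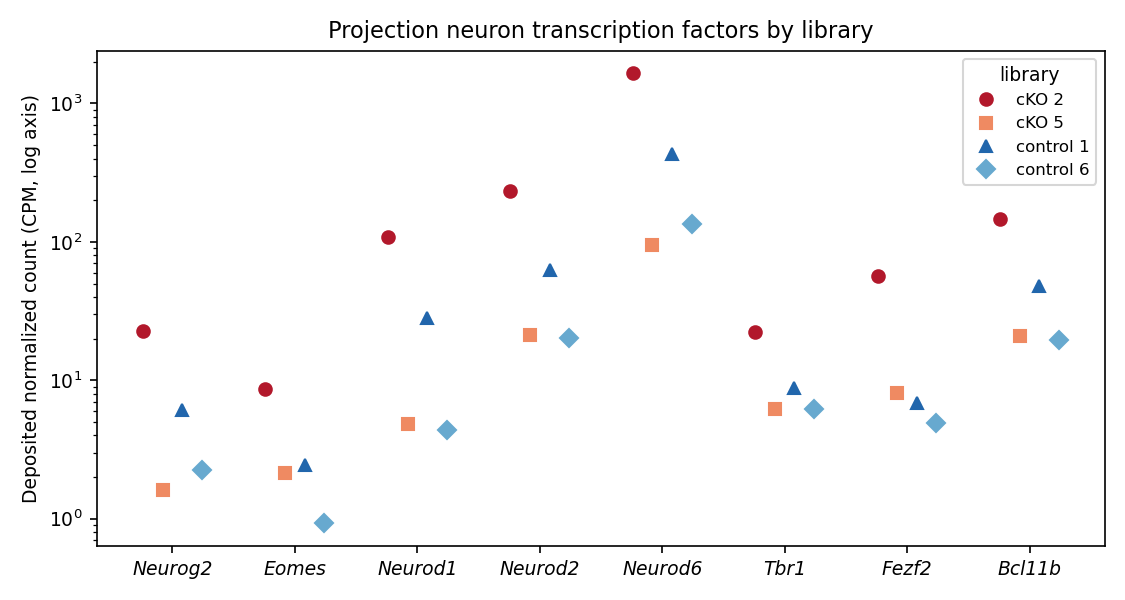
Deposited normalized counts (CPM, log axis) of the 8 genes, 1 point per library, with cKO libraries left of controls within each gene. Library cKO 2 is highest for every gene, and control 1 is second for every gene except Fezf2, where cKO 5 is second.

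Compared by genotype, all 8 genes had positive fold changes and none passed the test. The log2 fold change of cKO over control was 2.29 ± 0.93 (SE) for Fezf2, 1.64 ± 1.55 for Neurod1, 1.53 ± 0.97 for Eomes, 1.45 ± 1.15 for Neurod2 and 1.45 ± 1.33 for Neurod6. It was 1.36 ± 1.28 for Neurog2, 1.16 ± 0.94 for Bcl11b and 0.77 ± 0.69 for Tbr1. The median of the 8 was 1.45, beside a median of 0.03 over all genes tested. At an adjusted p under 0.05 in edgeR's quasi-likelihood test, 0 of 8 members and 0 of 15951 genes were called (0%). Each member had an adjusted p of 0.9997. At an unadjusted p under 0.05, 49 genes (0.307%) and no member were found, and the smallest unadjusted p of a member was 0.0651, for Fezf2. DESeq2 and limma-trend also called 0 genes after adjustment. At an unadjusted p under 0.05 they found 112 of 18723 and 54 of 15951 genes tested. Fezf2 was among the 112 in DESeq2 (unadjusted p = 0.0138). An exact permutation of 2 against 2 libraries has 3 distinct splits and cannot go below p = 0.333.

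The means show the spread behind these values. Neurod6 averaged 874 ± 1102 CPM in cKO and 284 ± 212 CPM in control (SD, n = 2 each), and Neurod2 averaged 127 ± 149 CPM in cKO and 41.3 ± 29.6 CPM in control. Fezf2 averaged 32.5 ± 34.5 CPM in cKO and 5.87 ± 1.33 CPM in control. For all 8 genes the SD within cKO exceeded the difference of the genotype means. With such spread, the absence of called genes does not show that levels were equal. Without cKO 2, the median member fold change was −0.68 and 6 of 8 genes had negative values, the lowest being −1.58 for Neurod1. Eomes (0.47) and Fezf2 (0.59) kept positive values there, although Eomes was lower in cKO 5 (2.12 CPM) than in control 1 (2.46 CPM). Without cKO 5 the median was 2.26, and Fezf2 reached 3.04 with an adjusted p of 0.468.

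**Figure D2:**
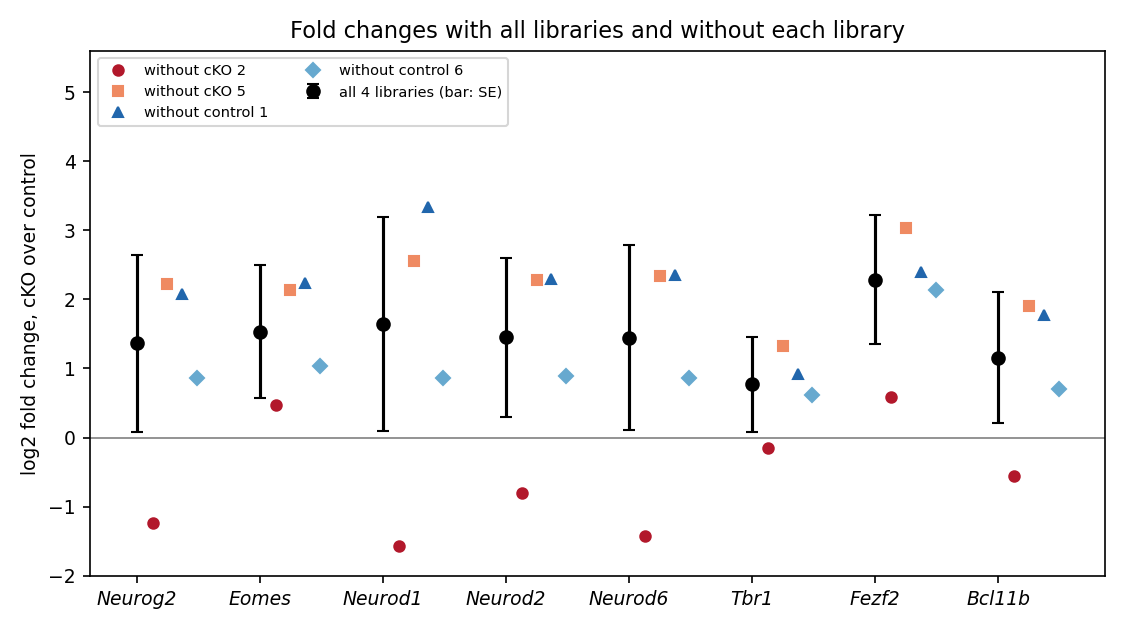
Log2 fold changes of cKO over control from edgeR for the 8 genes, with all 4 libraries (black, bars are SE) and with each library left out (coloured). Without cKO 2, 6 of 8 genes fall below 0, down to −1.58 for Neurod1.

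The authors deposited 4 tables that each set 1 cKO library against 1 control library, so the tables share libraries and have no replicates. In the authors' deposited table of cKO 2 against control 1, 8 of 8 members were called higher, where 20% of its genes were. In the authors' deposited table of cKO 2 against control 6, 8 of 8 were called higher, where 33.7% of genes were. In the authors' deposited table of cKO 5 against control 1, 5 of 8 were called lower (Neurog2, Neurod1, Neurod2, Neurod6 and Bcl11b), where 26% of genes were. In the authors' deposited table of cKO 5 against control 6, Eomes was called higher and no other member was called, where 9.23% of genes were called higher. The authors' call did not follow their adjusted p alone. Over the 4 tables, every called member had an absolute log2 fold change of at least 1.19, and every uncalled member at most 0.72. For cKO 5 against control 6, Eomes had a log2 fold change of 1.19 with a deposited adjusted p of 0.0027. That value is below its deposited p of 0.00304, so the deposited adjustment was not an ordinary one. Uncalled members with smaller deposited adjusted p-values were Neurod6 (−0.49, 7.35e-27) and Fezf2 (0.72, 0.000177). For Neurod1, the authors' deposited table gave log2 fold changes of 1.95 and 4.63 for cKO 2 and of −2.54 and 0.14 for cKO 5, each against control 1 and then control 6. For Tbr1, the authors' deposited table gave 1.34 and 1.84 for cKO 2, and −0.50 and 0.00 for cKO 5. Pairs with cKO 2 were positive for every member, and pairs with cKO 5 had either sign.

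Most neural genes on the lists were also highest in cKO 2. All 8 members were highest in cKO 2, as were 47.8% of all tested genes. The order cKO 2, then control 1, held for 7 of 8 members and for 33.6% of tested genes. It held for 9 of 10 pan-neuronal genes, 9 of 10 radial glia factors, 8 of 10 intermediate progenitor genes, 9 of 10 deep-layer genes and 8 of 10 upper-layer factors. The 10 pan-neuronal genes summed to 2676 CPM in cKO 2 and 253 CPM in cKO 5, against 784 CPM in control 1 and 261 CPM in control 6. All 10 had positive fold changes (median 1.37, 0 called), with the migration gene Dcx at 616 and 58.1 CPM in cKO 2 and cKO 5, against 226 and 59.5 CPM in control 1 and control 6. Of the cortical radial glia factors, 10 of 10 were positive (median 1.14, 0 called). Lhx2, a selector of cortical identity, had 102 and 6.32 CPM in the cKO libraries, against 30.5 and 9.57 CPM in the controls. Intermediate progenitor genes were positive in 8 of 10 (median 0.99, 0 called). The exceptions were Mfng (251 and 203 CPM in the cKO libraries, against 300 and 191 CPM in control) and Btg2 (210 and 127 CPM in the cKO libraries, against 214 and 144 CPM in control). Deep-layer genes were positive in 10 of 10 (median 0.98, 0 called) and upper-layer factors in 9 of 10 (median 1.03, 0 called). The exception was Mef2c, which microglia also express, at 271 and 584 CPM in the cKO libraries, against 442 and 565 CPM in control. Without cKO 2 (an alternative added after seeing the data), the medians were negative for all 5 lists: −0.76 for pan-neuronal genes (0 of 10 positive), −0.92 for radial glia factors (2 of 10), −0.63 for intermediate progenitor genes (1 of 9 tested), −1.60 for deep-layer genes (1 of 10) and −1.22 for upper-layer factors (2 of 10).

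Lists of other cell types differed in how they followed the order cKO 2, then control 1. It held for 8 of 11 interneuron, 4 of 5 Cajal-Retzius, 7 of 10 striatal neuron and 6 of 9 astrocyte and oligodendrocyte lineage genes tested. The order held for 1 of 9 endothelial, 0 of 6 pericyte and 0 of 16 microglial genes. Control 1 was highest for 8 of 9 endothelial and 6 of 6 pericyte genes. Interneuron genes were positive in 11 of 11 tested (median 1.18) and summed to 340 and 52.4 CPM in cKO 2 and cKO 5, against 93.97 and 55.9 CPM in control 1 and control 6. Cajal-Retzius genes were positive in 5 of 5 tested (median 1.83), with Calb2 at 40.5 and 2.49 CPM in the cKO libraries, against 3.55 and 3.37 CPM in control. Striatal neuron genes were positive in 7 of 10 (median 1.00), and astrocyte and oligodendrocyte lineage genes in 8 of 9 tested (median 1.06). Endothelial genes were negative in 9 of 9 (median −0.60), with sums of 2570 and 342 CPM in the cKO libraries, against 3314 and 616 CPM in control. Pericyte genes were negative in 6 of 6 (median −0.62), with sums of 3442 and 277 CPM in the cKO libraries, against 3821 and 743 CPM in control. Microglial genes were negative in 16 of 16 (median −0.48). None of these lists had a gene called, with or without cKO 2. Without cKO 2 the medians were −0.32 for interneuron genes, −0.36 for Cajal-Retzius genes, 0.12 for striatal neuron genes, −1.04 for the astrocyte and oligodendrocyte lineage, −2.46 for endothelial genes, −2.85 for pericyte genes and 0.26 for microglial genes. T and NK cell genes, of which 4 of 12 could be tested, summed to 1.96 CPM in cKO 2 and 15.5 CPM in cKO 5, against 14.4 CPM in control 1 and 11.8 CPM in control 6. Of the 9 found, 4 had no value in at least 1 library and added nothing to its sum. The most abundant T and NK cell gene was Il7r, at 1.10 and 8.13 CPM in cKO 2 and cKO 5, against 8.70 and 8.53 CPM in control 1 and control 6. Cd4 had 4 and 71 reads in cKO 2 and cKO 5, against 48 and 10 reads in control 1 and control 6. Gzma had 0 and 42 reads in the cKO libraries, against 28 and 16 reads in the controls. Both were lowest in cKO 2, as was Il7r. Lck ran the other way but was too low to be tested. It had 9 and 6 reads in the cKO libraries, against 3 and 3 reads in the controls. The 4 tested genes had a median log2 fold change of −0.49, and of 0.47 without cKO 2. The part of these marker levels in the fold changes of the 8 factors was not tested. In bulk libraries, fewer cells of a type and less RNA per cell cannot be told apart.

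**Figure D3:**
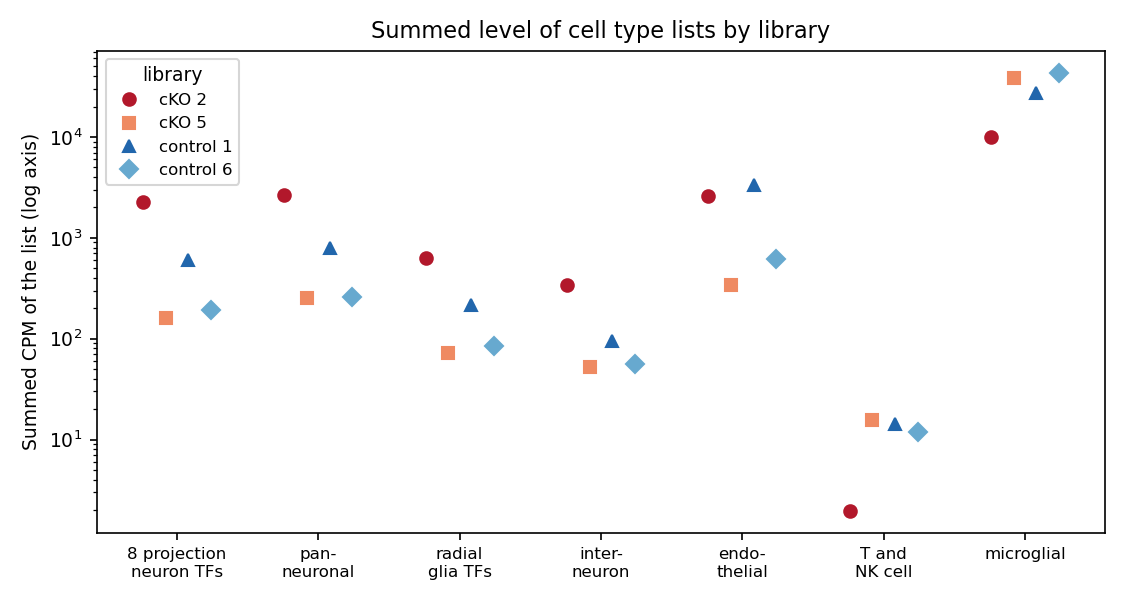
Summed CPM (log axis) of marker lists by library, 1 point per library, cKO left of control. The projection neuron factors run from 160 CPM in cKO 5 to 2252 CPM in cKO 2, and the microglial genes from 9883 CPM in cKO 2 to 43391 CPM in control 6.

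Set against the pan-neuronal genes of the same library, some of the 8 factors were nearly level and others were not. This ratio does not depend on library scaling. Neurod2 had 86.7 and 84.4 CPM per 1000 CPM of pan-neuronal genes in cKO 2 and cKO 5, against 79.4 and 78.1 in control 1 and control 6, a range of 1.11-fold where its CPM ranged 11.4-fold. Neurog2 had 8.53 and 6.35 in cKO, against 7.81 and 8.68 in control, although its 31 reads in cKO 5 allow only a coarse ratio. Bcl11b had 54.9 and 82.1 in cKO, against 60.7 and 75.2 in control. Neurod6 had 618 and 377 in cKO, against 554 and 515 in control. The range was 1.37-fold for Neurog2 and 1.64-fold for Neurod6, with Bcl11b between them.

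The other 4 genes differed more. On the same scale, Neurod1 had 40.8 in cKO 2 and 19.3 in cKO 5, against 36.1 in control 1 and 16.9 in control 6, so it was high in the libraries with the larger neuronal sums. Tbr1 had 8.31 and 24.6 in cKO 2 and cKO 5, against 11.2 and 23.8 in control 1 and control 6, the opposite arrangement. Eomes had 3.24 and 8.40 in cKO, against 3.14 and 3.56 in control, with cKO 5 apart on 41 reads. The T and NK cell sum was also highest in cKO 5, at 15.5 CPM, against 14.4 CPM in control 1. Its part in the Eomes reads was not tested. On the pan-neuronal scale, Fezf2 had 21.3 and 32.2 in cKO, against 8.68 and 18.9 in control. An exact permutation test of such ratios over 2 against 2 libraries cannot go below 0.333, and none was run.

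**Figure D4:**
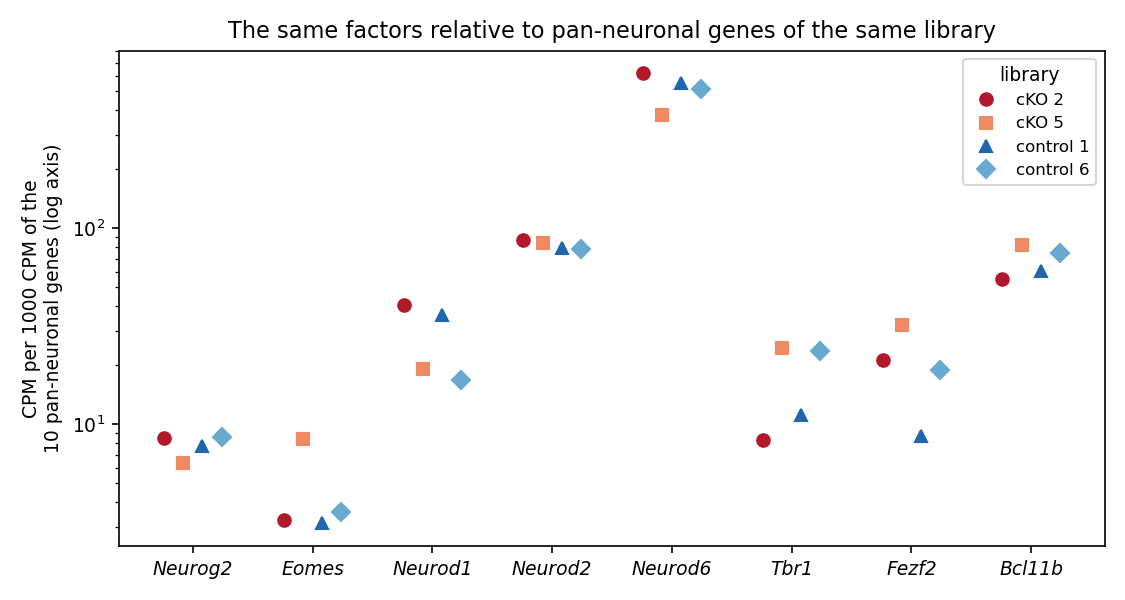
CPM of each factor per 1000 CPM of the 10 pan-neuronal genes in the same library (log axis), 1 point per library, cKO left of control. Neurod2 lies between 78.1 and 86.7 in every library, while Tbr1 runs from 8.31 in cKO 2 to 24.6 in cKO 5.

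Levels of different genes were compared per kilobase of exon, with lengths from the GENCODE M21 annotation. Neurod6 was the most abundant by far, at 769 and 44.4 CPM per kb in cKO 2 and cKO 5, against 202 and 62.4 CPM per kb in control 1 and control 6. It made up 82.2% and 73.3% of the summed level of the 8 genes in cKO, against 82.4% and 81.1% in control. Neurod2 was second in every library, at 73.9 and 6.79 CPM per kb in cKO, against 19.8 and 6.48 CPM per kb in control. Eomes was lowest in every library, at 2.09 and 0.511 CPM per kb in cKO, against 0.592 and 0.223 CPM per kb in control. The 5 genes between changed places between libraries. Neurod1 was the third gene in cKO 2 (40.1 CPM per kb) and control 1 (10.4 CPM per kb), but lay below Bcl11b in cKO 5 (1.78 CPM per kb) and control 6 (1.62 CPM per kb). In control 6 it could not be told from Fezf2, also at 1.62 CPM per kb, with 76 reads for Neurod1 and 85 for Fezf2. Fezf2 and Bcl11b were close in the cKO libraries, at 18.7 and 18.1 CPM per kb in cKO 2. Tbr1, at 4.05 and 1.13 CPM per kb in cKO, against 1.61 and 1.13 CPM per kb in control, stood above Neurog2 in cKO 5. It stood below Neurog2 in cKO 2 and control 1. In control 6 the order of these genes could not be told, with Neurog2 at 1.02 CPM per kb on 39 reads and Tbr1 on 107 reads. The GENCODE model of Fezf2 differs in both ends from the one in the tables, so its length is approximate.

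By Euclidean distance between centred log2 profiles over the 4 libraries, 10691 other genes were compared with the median profile of the 8 factors. The closest were Dpysl3, Rusc1, Lysmd2, Ggt7, Magee1 and Lrrtm4. Dpysl3, a collapsin response mediator of growing axons, had 445 and 45.4 CPM in cKO 2 and cKO 5, against 121 and 44.7 CPM in control 1 and control 6, at a distance of 0.08. Among the factors themselves, Neurod2 was nearest to that median (0.19), and Tbr1 (1.28), Neurod1 (1.14) and Fezf2 (1.14) were farthest. The closest genes were picked for a small distance and the factors were not, so their distances cannot be compared. With 4 libraries, such likeness is a description of these samples.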

How the data were processed

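The 4 libraries were available as 4 tables, each of 1 cKO and 1 control library. Per the submitters' processing notes, HTSeq 0.6.0, TopHat2 2.0.12 and Bowtie2 2.2.3 were used with mm9. The sources used here do not give their roles or settings, the strandedness or the authors' test. Gene positions in the tables matched GRCm38 (90.3% of 21922 matched genes identical). The authors deposited raw read counts per gene. The deposited normalized values are CPM, with 0.5 reads in place of 0. The authors also deposited, for each pair of libraries, the ratio of the cKO to the control CPM, its log2, a p-value and an adjusted p-value.

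Counts were joined by gene ID (18723 genes with a count in all libraries) and tested with edgeR 4.0.16 (TMM, filterByExpr minimum count 10, quasi-likelihood test, Benjamini-Hochberg over 15951 genes, two-sided, 2 residual degrees of freedom). SEs were derived from the F statistic. The procedure was tested on simulated counts with planted changes. These held no library that stood apart from its group as cKO 2 did. The alternatives were RLE factors, DESeq2 1.42.0, no filter, limma-trend (limma 3.58.1) on log2(CPM + 1), scaling on microglial genes and leaving out each library (for the marker lists, cKO 2). Profiles used log2(CPM + 0.5) after TMM. The members and lists were chosen with earlier results of these data known. Named genes were the members, up to 3 most abundant genes per list and the 6 genes with a mean of at least 5 CPM closest in profile, leaving out predicted genes. Lck was named outside this rule. Promoters are RefSeq's.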

Additional observations from a re-analysis of the deposited data

How the results depend on the processing

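Under RLE factors, DESeq2, no filter, limma-trend and scaling on microglial genes, all 8 members kept a positive fold change with an adjusted p above 0.05. Microglial scaling moved the median of all genes to 1.14 (0.03 with TMM) and the member median to 2.97. On the log2(CPM + 1) scale of limma-trend the member median was 0.83, against 1.45 in edgeR, with Neurod6 at 0.64 and Neurog2 at 0.63. Leaving out 1 library at a time, 0 genes were called in every fit, and the member median ran from −0.68 without cKO 2 to 2.27 without control 1. Without cKO 2 the fold change reversed for Neurog2 (range −1.23 to 2.23), Neurod1 (−1.58 to 3.34), Neurod2 (−0.80 to 2.30), Neurod6 (−1.42 to 2.35), Tbr1 (−0.15 to 1.33) and Bcl11b (−0.55 to 1.91); the cause was not tested. Eomes (0.47 to 2.24) and Fezf2 (0.59 to 3.04) stayed positive, although Eomes was lower in cKO 5 than in control 1. In a fit without 1 library, the lone library of an arm is assumed to vary like the others. No paired analysis was possible because the genotypes share no replicate number. Depth limits Eomes and Neurog2 most, with 16 and 31 reads in their lowest libraries.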
